A study of Rattus norvegicus and Mus musculus with 74 samples.

Results

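The 6 distal-less homeobox genes Dlx1 to Dlx6 were followed through ChIP-seq maps of 4 histone marks in rat and mouse brain cortex. Members were all regions of the 2 deposited tables whose list of genes named one of the 6: 8 of 132934 regions, of which 5 of 72824 were in rat and 3 of 60110 in mouse. The 6 genes lie in 3 pairs, and in both species the starts of the genes of a pair fell into 1 region, so that Dlx1 and Dlx2, Dlx3 and Dlx4, or Dlx5 and Dlx6 cannot be told apart in these data. The term start region is used for these 6 regions, 1 per pair and species, and flanking region for the 2 other rat regions, which listed Dlx2 or Dlx6 without holding a start of a Dlx gene.

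Dlx genes encode homeodomain transcription factors and stand in convergently transcribed pairs. In the mouse, Dlx1, Dlx2, Dlx5 and Dlx6 are known for their role in the ganglionic eminences of the embryonic forebrain, where they specify GABAergic neurons, among them cortical interneurons, and repress competing programmes. Dlx3 and Dlx4 are known from skin, tooth, bone and placenta and have no such established role in cortex, and Dlx5 and Dlx6 also act in the jaw and limb skeleton. Developmental regulators of this kind are known targets of Polycomb, which places H3K27me3, the mark of repressed genes, over broad domains. H3K4me3 marks active or poised promoters, H3K9Ac is found at active promoters and enhancers, and H3K9me3 at silent heterochromatin.

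The rats (Sprague-Dawley) formed 3 groups: prenatal valproate (VPA) with TAK-418, prenatal VPA with vehicle, and healthy animals with vehicle. The mice (C57BL/6J) formed 3 as well: prenatal poly I:C with TAK-418, prenatal poly I:C with vehicle, and healthy animals with vehicle. Poly I:C is a double-stranded RNA analogue that mimics a viral infection of the dam. TAK-418 inhibits LSD1 (KDM1A), a demethylase of H3K4. Each group had 3 libraries per mark, which gives 72 ChIP libraries in 24 groups among 74 samples; the other 2 samples were pooled inputs, not analysed here. Ages are not in the labels, nor is it said whether replicates are separate animals, so the p-values rest on a spread between libraries that may be technical. The cortex holds many cell types, and fewer cells carrying a mark cannot be told apart from less of the mark per cell.

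The values were mean signals over a region, a highest signal (the summit within the region) and whether an interval had been called there in a library. The tables carried no read counts, so depth is unknown and counting error could not be given. Antibody lots for H3K4me3 and H3K27me3 differed between the species and the tables were made separately, so levels were compared within a species only. As a check of the tissue, the neuronal markers Snap25, Syt1, Rbfox3 and Tubb3 had a median H3K9Ac percentile among all regions of 89.4 in control rats and 94.8 in control mice, the excitatory markers 94.0 and 89.5, the inhibitory markers Gad1, Gad2, Slc32a1 and Lhx6 82.8 and 79.8, and the non-brain markers found 72.1 and 62.7. The striatum markers found had 83.2 and 91.2, above the inhibitory markers in both species and above the excitatory markers in mice. These medians therefore do not tell cortex from striatum. Markers of astrocytes, oligodendrocytes and microglia had 86.6, 87.1 and 85.5 in control rats and 83.1, 87.3 and 76.6 in control mice. Libraries of a mark differed in their general signal. In rat H3K9Ac the signal summed over all regions was 221421 ± 29976 in VPA TAK-418 libraries, 293342 ± 72749 in VPA vehicle libraries and 172000 ± 10384 in control libraries (SD, n = 3 each), and in mouse H3K27me3 the called intervals ranged from 1916 to 13596 within the poly I:C vehicle group. Group comparisons are therefore given beside the median change of all regions tested and, where it matters, after centring each library on its own median.

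The Dlx start regions were long and rich in CpG islands. In rat (build rn5), the Dlx1/2 start region spanned chr3:64640800-64673999 (33.2 kb, 43 merged intervals, 5 CpG islands) and also listed Metap1d, with its start outside, and LOC100910518. The Dlx5/6 start region spanned chr4:32235200-32270599 (35.4 kb, 60 intervals, 5 islands) and also listed LOC100912227. The Dlx3/4 start region spanned chr10:82730000-82804599 (74.6 kb, 39 intervals, 5 islands). The flanking regions lay upstream of Dlx2 at chr3:64675000-64691999 (17.0 kb, 17 intervals) and beside Dlx6 at chr4:32221200-32234399 (13.2 kb, 11 intervals), both with 0 CpG islands. In mouse (build mm10), Dlx1/2 lay in chr2:71516200-71616399 (100.2 kb, 88 intervals, 5 islands, also the antisense gene Dlx1as), Dlx5/6 in chr6:6839600-6896399 (56.8 kb, 66 intervals, 6 islands, also the antisense genes Dlx6as1 and Dlx6as2) and Dlx3/4 in chr11:95092400-95279799 (187.4 kb, 54 intervals, 7 islands, also the starts of A730090H04Rik and Tac4). Against this, the median length of a region was 5199 bp in rat and 6599 bp in mouse, and only 253 rat regions (0.347%) and 308 mouse regions (0.512%) held 5 or more CpG islands. All 6 start regions were among these. A mean over a long region averages over parts with little of a mark, which bears most on the mouse Dlx3/4 region.

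The sequence at the start of 1 of the 6 Dlx genes, rat Dlx1, was in the RefSeq promoter table (build GRCr8, 250 bases before to 50 after the start), which is another build than that of the signal tables. It is shown because no other Dlx start was matched. It lies in the rat Dlx region with the highest mean H3K27me3. CpG-dense promoters are known to recruit Polycomb, but a link between these letters and the mark was not tested. LOC100912227, whose start fell into the rat Dlx5/6 start region, is shown beside it as the other matched start. Capitals mark CG dinucleotides, 5′ to 3′ on the strand of the gene. The first is chr3:76763614-76763913 on the plus strand and the second chr4:35959410-35959709 on the minus strand.
Dlx1: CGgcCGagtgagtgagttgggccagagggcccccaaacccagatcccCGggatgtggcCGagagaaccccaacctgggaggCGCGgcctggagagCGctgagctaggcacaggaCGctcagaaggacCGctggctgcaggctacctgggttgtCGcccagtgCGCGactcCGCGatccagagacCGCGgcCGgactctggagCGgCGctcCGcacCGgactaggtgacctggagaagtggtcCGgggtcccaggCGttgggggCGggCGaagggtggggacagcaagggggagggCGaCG
LOC100912227: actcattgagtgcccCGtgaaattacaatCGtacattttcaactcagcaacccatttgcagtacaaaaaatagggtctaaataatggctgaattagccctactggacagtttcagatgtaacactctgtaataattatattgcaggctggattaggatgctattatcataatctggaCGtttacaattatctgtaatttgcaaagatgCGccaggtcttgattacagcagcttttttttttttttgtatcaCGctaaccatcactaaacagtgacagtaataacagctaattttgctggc
The Dlx1 promoter held 27 CG dinucleotides and 70.3% G and C, and 13.9% of the 33469 promoters of the table held as many CG or more. The LOC100912227 promoter held 5 CG and 36.7% G and C, and 62.0% of promoters held as many or more; the median of all promoters was 7. The homeodomain core motif TAATT was searched on both strands, together with the palindrome TAATTA, which contains it. The Dlx1 window held 0 of both, and the LOC100912227 window held 7 matches of TAATT and 1 of TAATTA, against a share of all promoters with a match of 28.5% for TAATT and 5.36% for TAATTA. A match is a description of letters and no evidence of binding.

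H3K27me3 covered the start regions of all 3 pairs in every group of both species, the non-neural pair as well as the interneuron pairs. In rat, the Dlx1/2 start region had a mean signal of 54.9, 25.3 and 27.9 in VPA TAK-418 libraries, 33.4, 46.8 and 28.2 in VPA vehicle libraries, and 37.4, 46.1 and 17.7 in control libraries. The Dlx5/6 start region had 36.2, 17.2 and 18.5 in VPA TAK-418 libraries, 21.9, 31.2 and 17.8 in VPA vehicle libraries, and 23.7, 28.6 and 12.3 in control libraries. The Dlx3/4 start region had 30.3, 13.3 and 13.4 in VPA TAK-418 libraries, 16.0, 23.3 and 13.0 in VPA vehicle libraries, and 19.0, 24.2 and 8.44 in control libraries. VPA TAK-418 replicate 1 was the highest library and control replicate 3 the lowest at each of the 3 regions, and the 3 groups overlapped.

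Within each library these levels stood near the top of the table. Averaged over the 9 libraries, the Dlx1/2 start region ranked 25th of 72824 rat regions for H3K27me3, Dlx5/6 99th and Dlx3/4 222nd. The percentile within a library was 99.96 to 99.97 for Dlx1/2, 99.83 to 99.87 for Dlx5/6 and 99.6 to 99.8 for Dlx3/4 over the 9 rat libraries. The mark extended outward on the Dlx5/6 side: the flanking region beside Dlx6 had 21.7, 10.8 and 9.92 in VPA TAK-418 libraries, 12.3, 16.2 and 9.94 in VPA vehicle libraries, and 13.0, 13.4 and 6.27 in control libraries, at percentiles of 98.8 to 99.5. The flanking region upstream of Dlx2 was far lower, with a range over the 9 libraries of 2.48 to 6.94 and percentiles of 86.2 to 90.3. An H3K27me3 interval was called in 9 of 9 libraries in all 5 rat regions.

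In mouse the Dlx5/6 start region had an H3K27me3 mean signal of 6.70, 7.76 and 9.00 in poly I:C TAK-418 libraries, 22.5, 15.0 and 5.26 in poly I:C vehicle libraries, and 8.98, 13.9 and 14.3 in control libraries. The Dlx1/2 start region had 6.00, 7.08 and 7.79 in poly I:C TAK-418 libraries, 19.1, 13.1 and 4.67 in poly I:C vehicle libraries, and 8.27, 11.6 and 12.6 in control libraries. The Dlx3/4 start region had 5.28, 6.58 and 7.25 in poly I:C TAK-418 libraries, 18.3, 12.5 and 4.06 in poly I:C vehicle libraries, and 7.22, 11.1 and 11.4 in control libraries. The poly I:C vehicle group was widely spread, with replicate 3 the lowest of all 9 libraries at each of the 3 regions. Dlx5/6 ranked 68th, Dlx1/2 113th and Dlx3/4 149th of 60110 mouse regions, and percentiles were 99.86 to 99.90, 99.80 to 99.83 and 99.6 to 99.8 over the 9 libraries. An interval was called in 9 of 9 libraries in all 3 regions.

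**Figure D1:**
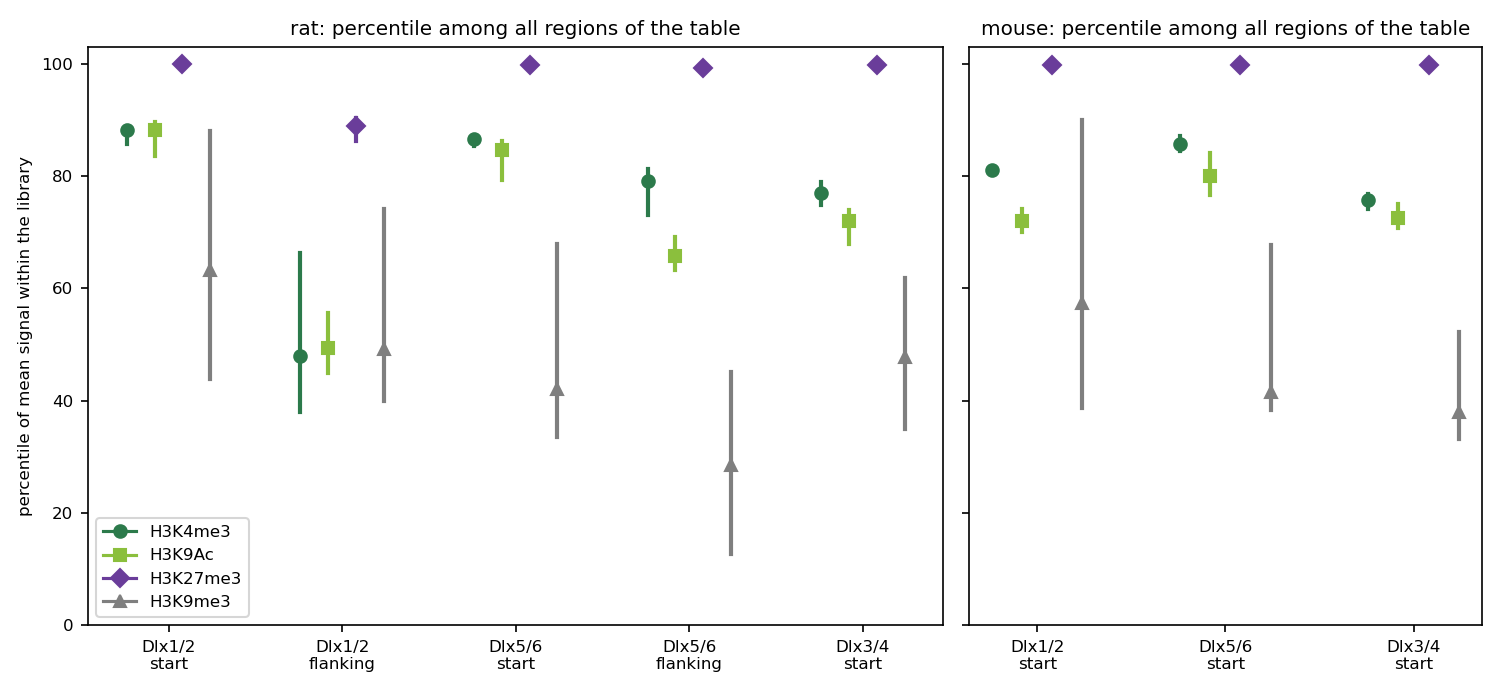
Percentile of the mean signal (y axis, 0 to 100, among all regions of the table, within a library) of each Dlx region (x axis) for the 4 marks, in rat and mouse. Points are medians over 9 libraries and bars their range; H3K27me3 lies at the top for all start regions (99.96 to 99.97 for rat Dlx1/2), with H3K4me3 and H3K9Ac below it and H3K9me3 spread widely (43.9 to 88.0 for rat Dlx1/2).

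H3K4me3 and H3K9Ac were also called in the start regions, though not in every library. At rat Dlx3/4, H3K4me3 was called in 4 of 9 libraries and in 0 VPA vehicle libraries. In rat, H3K4me3 at the Dlx1/2 start region was 17.0, 11.5 and 16.0 in VPA TAK-418 libraries, 11.2, 13.5 and 11.5 in VPA vehicle libraries, and 5.25, 9.87 and 7.40 in control libraries. At Dlx5/6 it was 11.6, 9.31 and 12.9 in VPA TAK-418 libraries, 8.62, 10.5 and 9.99 in VPA vehicle libraries, and 4.91, 7.63 and 6.22 in control libraries. At Dlx3/4 it was 2.52, 1.96 and 2.87 in VPA TAK-418 libraries, 1.87, 1.91 and 1.85 in VPA vehicle libraries, and 1.61, 1.75 and 1.90 in control libraries. Every library of both exposed groups lay above every control library at Dlx1/2 and Dlx5/6, while at Dlx3/4 the VPA vehicle and control libraries overlapped. The library medians of all tested regions parted likewise. They were 14.3 to 20.7 in VPA TAK-418, 15.2 to 16.1 in VPA vehicle and 9.60 to 13.6 in control libraries. The interneuron pairs carried H3K4me3 at percentiles of 85.7 to 88.9 (Dlx1/2) and 85.3 to 87.3 (Dlx5/6), and the non-neural pair at 74.9 to 78.9. An H3K4me3 interval was called in 9 of 9 rat libraries at Dlx1/2 and at Dlx5/6, in 4 of 9 at Dlx3/4, in 1 of 9 at the flanking region beside Dlx6 and in 0 of 9 at the one upstream of Dlx2.

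Rat H3K9Ac at Dlx1/2 was 5.27, 6.51 and 4.99 in VPA TAK-418 libraries, 10.4, 12.8 and 6.69 in VPA vehicle libraries, and 5.70, 4.07 and 4.91 in control libraries. At Dlx5/6 it was 4.41, 5.26 and 3.63 in VPA TAK-418 libraries, 7.64, 8.55 and 5.07 in VPA vehicle libraries, and 4.08, 3.91 and 3.82 in control libraries. At Dlx3/4 it was 2.80, 3.21 and 2.46 in VPA TAK-418 libraries, 4.47, 4.63 and 2.79 in VPA vehicle libraries, and 2.37, 1.86 and 2.22 in control libraries. VPA vehicle libraries lay above all control libraries at the 3 regions, and replicate 3 of that group was its lowest at each. The library medians of all tested regions parted likewise, 6.02 to 11.0 in VPA vehicle and 4.32 to 5.13 in control libraries. Intervals were called in 9 of 9 libraries at Dlx1/2 and Dlx5/6, in 8 of 9 at Dlx3/4 and in 0 of 9 at both flanking regions.

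In mouse the order of the interneuron pairs in mean signal was the other way round. The mouse Dlx1/2 region (100.2 kb) is longer than the Dlx5/6 region (56.8 kb), which bears on such means. H3K4me3 at Dlx5/6 was 5.60, 4.57 and 6.17 in poly I:C TAK-418 libraries, 5.49, 3.76 and 4.28 in poly I:C vehicle libraries, and 11.1, 5.43 and 5.29 in control libraries. At Dlx1/2 it was 3.24, 2.55 and 3.37 in poly I:C TAK-418 libraries, 3.00, 2.49 and 2.56 in poly I:C vehicle libraries, and 5.21, 3.12 and 3.08 in control libraries. At Dlx3/4 it was 1.85, 1.83 and 2.03 in poly I:C TAK-418 libraries, 1.91, 1.65 and 1.80 in poly I:C vehicle libraries, and 2.97, 2.00 and 1.97 in control libraries. Control replicate 1 was the highest of the 9 libraries at all 3 regions, and the other control libraries overlapped the poly I:C TAK-418 libraries at Dlx1/2, Dlx3/4 and Dlx5/6. Intervals were called in 9 of 9 libraries at all 3 regions.

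Mouse H3K9Ac at Dlx5/6 was 3.40, 3.13 and 2.56 in poly I:C TAK-418 libraries, 3.41, 2.54 and 3.20 in poly I:C vehicle libraries, and 6.14, 4.12 and 3.65 in control libraries. At Dlx1/2 it was 2.49, 2.33 and 1.90 in poly I:C TAK-418 libraries, 2.48, 1.91 and 2.21 in poly I:C vehicle libraries, and 3.69, 3.01 and 2.52 in control libraries. At Dlx3/4 it was 2.60, 2.78 and 1.81 in poly I:C TAK-418 libraries, 2.49, 1.75 and 2.34 in poly I:C vehicle libraries, and 3.34, 3.53 and 2.67 in control libraries. Control libraries lay above all poly I:C vehicle libraries at each of the 3 regions. The library medians of all tested regions parted likewise, 5.04 to 7.91 in control and 3.31 to 4.77 in poly I:C vehicle libraries. An H3K9Ac interval was called in 9 of 9 libraries at Dlx5/6 and in 8 of 9 at Dlx1/2 and at Dlx3/4.

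H3K27me3 and H3K4me3 at 1 region is the pattern known as bivalent, which in bulk tissue can also come from different cells. In long merged regions it can also come from different positions, since an interval counted wherever it lay in the region. H3K9Ac with H3K27me3 does not carry that name and was counted in the same way. The shares given here were not matched for region length. Among the 365 rat regions in the top 0.5% for H3K27me3, which included the 3 Dlx start regions, 40.3% had an H3K4me3 interval in all 9 libraries, against 17.1% of all regions, and 34.2% an H3K9Ac interval, against 17.4%. In mouse the same held for 52.2% of the top 301 regions, against 18.6% of all, for H3K4me3 and for 29.2%, against 15.3%, for H3K9Ac. In rat the Dlx1/2 and Dlx5/6 start regions were among these for both marks, and Dlx3/4 for neither. In mouse all 3 start regions were among them for H3K4me3 and Dlx5/6 for H3K9Ac.

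H3K9me3 was called in fewer libraries than H3K27me3. Over the 9 rat libraries the mean signal was 1.68 to 3.40 at Dlx1/2, 1.58 to 2.56 at Dlx5/6 and 1.58 to 2.79 at Dlx3/4, and over the 9 mouse libraries 1.43 to 4.28 at Dlx1/2, 1.38 to 3.18 at Dlx5/6 and 1.42 to 2.59 at Dlx3/4. Intervals were called in 4, 2 and 6 of 9 rat libraries and in 6, 2 and 3 of 9 mouse libraries at Dlx1/2, Dlx5/6 and Dlx3/4, in that order, and in 0 of 9 at the rat flanking regions. The percentile moved more between libraries than for any other mark, from 43.9 to 88.0 at rat Dlx1/2 and from 38.7 to 90.0 at mouse Dlx1/2.

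**Figure D2:**
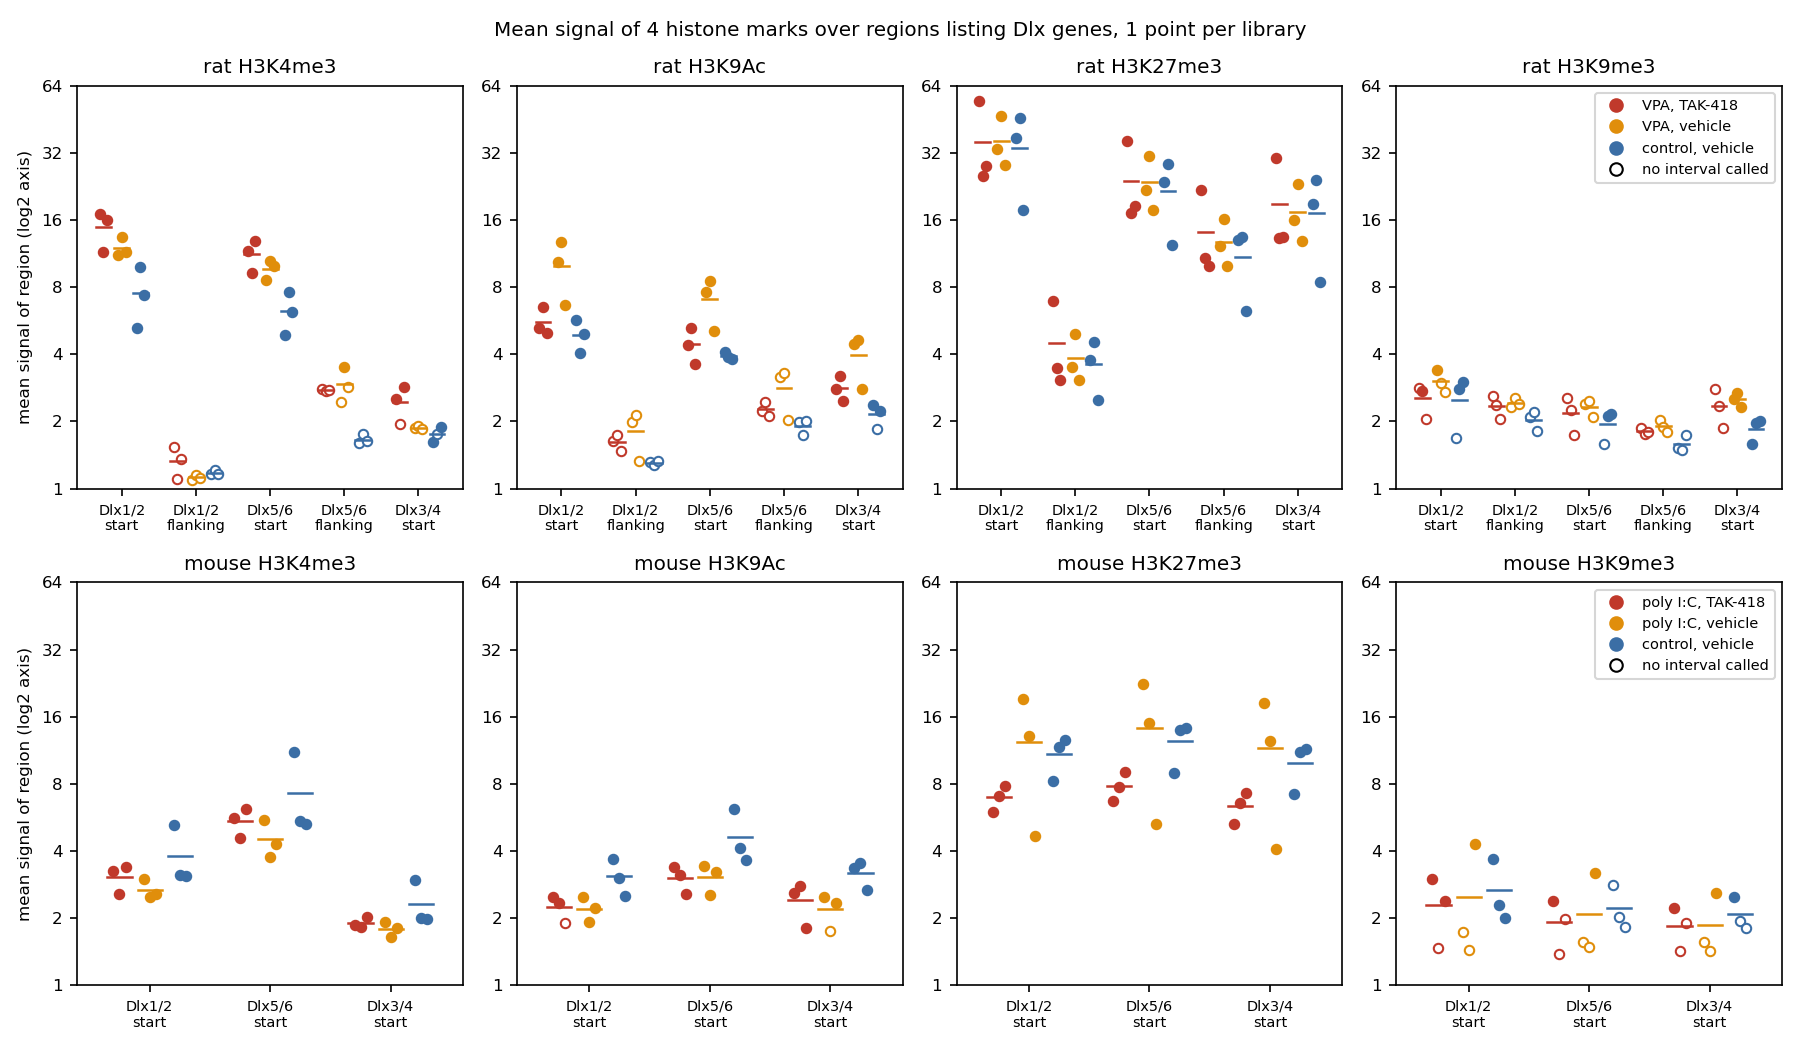
Mean signal of a region (y axis, log2 scale) in each library for the regions listing a Dlx gene (x axis), 4 marks, rat above and mouse below. Points are libraries, coloured by group, open where no interval was called, and lines are group means; the rat Dlx1/2 start region had H3K27me3 of 17.7 to 54.9 over its 9 libraries and H3K9me3 of 1.68 to 3.40.

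The pairs were set against each other within each library, where a factor common to the whole library cancels but for the pseudocount. Differences are on the log2(mean signal + 1) scale, tested with an exact two-sided sign-flip permutation test over 9 libraries (smallest possible p 0.0039) and adjusted over 24 differences by the Benjamini-Hochberg method. Such a p tells how steadily 2 fixed regions differed over the libraries of the 3 groups. It does not test interneuron against non-neural genes, and how often other regions differ as steadily was not tested. In rat H3K4me3, Dlx1/2 lay 1.99 above Dlx3/4 and Dlx5/6 1.70 above it, each in 9 of 9 libraries (exact permutation test, adjusted p = 0.0047). In rat H3K9Ac, the same differences were 0.94 and 0.62, and in rat H3K27me3 0.96 and 0.37 (exact permutation test, adjusted p = 0.0047 for each). Of the interneuron pairs, Dlx1/2 exceeded Dlx5/6 by 0.29 in H3K4me3, 0.32 in H3K9Ac and 0.59 in H3K27me3 (exact permutation test, adjusted p = 0.0047 for each). The highest signal does not average over the longer Dlx3/4 region. A longer region offers more positions for a high value, however, so neither measure is free of length. With the highest signal in place of the mean, Dlx1/2 stayed above Dlx3/4 in these 3 marks, and Dlx5/6 in H3K4me3. Dlx5/6 minus Dlx3/4 was then -0.01 in H3K9Ac and 0.0017 in H3K27me3 (exact permutation test, adjusted p = 0.984 for both). For H3K9me3 the rat differences were 0.18 for Dlx1/2 against Dlx3/4 and 0.22 for Dlx1/2 against Dlx5/6 (exact permutation test, adjusted p = 0.0047 for both), and -0.03 for Dlx5/6 against Dlx3/4 (exact permutation test, adjusted p = 0.163); with the highest signal 0 of the 3 passed the threshold.

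In mouse, Dlx5/6 lay above both other pairs in the mean signal of 3 marks, and this order did not hold for the highest signal. Dlx5/6 exceeded Dlx3/4 by 1.13 in H3K4me3, 0.34 in H3K9Ac and 0.28 in H3K27me3, and Dlx1/2 minus Dlx5/6 was -0.66, -0.37 and -0.17 in these marks (exact permutation test, adjusted p = 0.0047 for each). Dlx1/2 exceeded Dlx3/4 by 0.47 in H3K4me3 and 0.11 in H3K27me3 (exact permutation test, adjusted p = 0.0047 for both), while in H3K9Ac the difference was -0.03 (exact permutation test, adjusted p = 0.379). In H3K9me3 the order was another, with Dlx1/2 above Dlx3/4 by 0.21 and above Dlx5/6 by 0.15, and Dlx5/6 above Dlx3/4 by 0.06 (exact permutation test, adjusted p = 0.0047, 0.00893 and 0.0213). With the highest signal, the H3K27me3 order turned round past the threshold: Dlx5/6 minus Dlx3/4 was -0.19 and Dlx1/2 minus Dlx5/6 was 0.49 (exact permutation test, adjusted p = 0.0187 and 0.0117). Both differences put a longer region, Dlx3/4 (187.4 kb) or Dlx1/2 (100.2 kb), above Dlx5/6 (56.8 kb). The part of region length in this was not tested. In H3K4me3 the highest signal gave -0.22 for Dlx1/2 and 0.02 for Dlx5/6 against Dlx3/4, and -0.25 for Dlx1/2 against Dlx5/6 (exact permutation test, adjusted p = 0.211, 0.984 and 0.0505). In H3K9Ac it gave -0.02 for Dlx5/6 against Dlx3/4 and -0.13 for Dlx1/2 against Dlx5/6 (exact permutation test, adjusted p = 0.984 and 0.281).

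**Figure D3:**
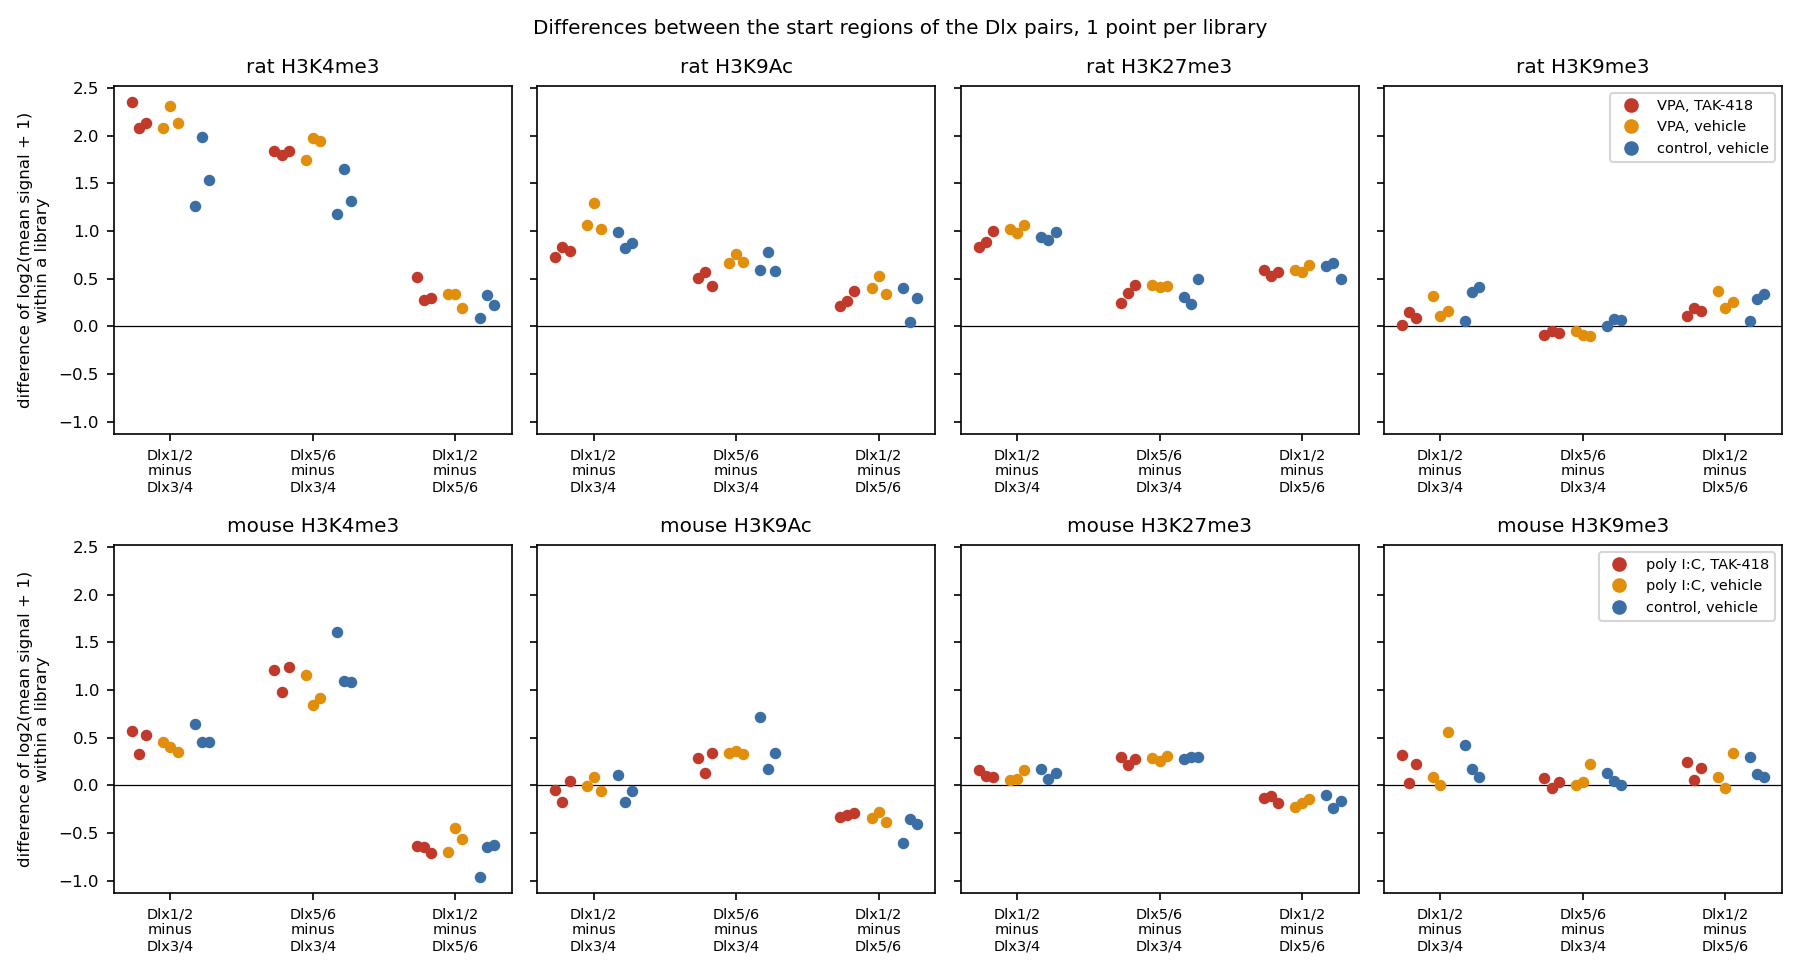
Difference of log2(mean signal + 1) between the start regions of 2 pairs within a library (y axis) for each pair of pairs (x axis), 4 marks, rat above and mouse below. Points are libraries, coloured by group; in rat H3K4me3 all points of Dlx1/2 minus Dlx3/4 lie above 0, with a mean of 1.99, and in mouse H3K4me3 Dlx1/2 minus Dlx5/6 lies below 0, with a mean of -0.66.

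The comparison of exposed with healthy animals and of TAK-418 with vehicle asks whether prenatal exposure shifted the marks and whether LSD1 inhibition altered them. It was tested with limma on log2(mean signal + 1) over all regions with an interval in at least 3 of the 9 libraries, with Benjamini-Hochberg adjustment over all regions of the mark and a threshold of 0.05. Folds are log2 differences on that scale, which understates changes of low values. The 3 comparisons of a mark share libraries, so their values are given side by side and not as separate evidence.

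In rat H3K4me3, the 3 start regions were higher in VPA TAK-418 than in control libraries as deposited, while median centring turned the sign at Dlx3/4. Quantile normalization did not turn it. Dlx1/2 averaged 14.8 ± 3.0 in VPA TAK-418 libraries and 7.51 ± 2.3 in control libraries (SD, n = 3 each), a log2 difference of 0.92 (SE 0.22, limma adjusted p = 0.000797). Dlx5/6 averaged 11.3 ± 1.8 in VPA TAK-418 libraries and 6.25 ± 1.4 in control libraries, a difference of 0.77 (SE 0.22, limma adjusted p = 0.00342). Dlx3/4 averaged 2.45 ± 0.46 in VPA TAK-418 libraries and 1.75 ± 0.14 in control libraries, a difference of 0.32 (SE 0.12, limma adjusted p = 0.0186). Called higher were 3 of 3 Dlx regions tested, against 72.8% of all regions (10403 of 14296), whose median difference was 0.58, so that the count of Dlx regions is near the background. After median centring 0 of 3 were called, with differences of 0.30 for Dlx1/2, 0.15 for Dlx5/6 and, with the sign turned, -0.30 for Dlx3/4, and 0 of 3 were called after quantile normalization or without the filter on intervals. After quantile normalization the differences were 0.35, 0.22 and 0.03 in this order. The call of Dlx3/4 was also lost without control replicate 1, VPA TAK-418 replicate 1 or VPA TAK-418 replicate 3 (limma adjusted p = 0.0957, 0.0825 and 0.106).

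The other rat H3K4me3 comparisons gave no call among the Dlx regions. VPA vehicle exceeded control by 0.65 at Dlx1/2 (SE 0.22, limma adjusted p = 0.0734), 0.57 at Dlx5/6 (SE 0.22, limma adjusted p = 0.0887) and 0.07 at Dlx3/4 (SE 0.12, limma adjusted p = 0.656). Called were 0 of 3, with 2 of 3 at an unadjusted p under 0.05, against 1.64% of all regions called (234 of 14296) and a median of 0.37. After median centring the differences were 0.25, 0.17 and, with the sign turned, -0.34, with 0 of 3 called. Without control replicate 2 or without VPA TAK-418 replicate 2, 2 of 3 were called. VPA TAK-418 exceeded VPA vehicle by 0.27, 0.19 and 0.25 at Dlx1/2, Dlx5/6 and Dlx3/4 (limma adjusted p = 0.703, 0.703 and 0.611). Called were 0 of 3, with 1 of 3 at an unadjusted p under 0.05, against 0.224% of all regions (32 of 14296) and a median of 0.20. After median centring the differences were 0.05, -0.02 and 0.04, the sign turning at Dlx5/6.

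In rat H3K9Ac, the 3 start regions were higher in VPA vehicle than in control libraries as deposited, as were most other regions, while median centring turned the sign at Dlx5/6 and Dlx3/4. Quantile normalization turned it at Dlx5/6 only. Dlx1/2 averaged 9.97 ± 3.1 in VPA vehicle libraries and 4.89 ± 0.82 in control libraries (SD, n = 3 each), a difference of 0.86 (SE 0.25, limma adjusted p = 0.00166). Dlx5/6 averaged 7.09 ± 1.8 in VPA vehicle libraries and 3.94 ± 0.13 in control libraries, a difference of 0.69 (SE 0.25, limma adjusted p = 0.00838). Dlx3/4 averaged 3.97 ± 1.0 in VPA vehicle libraries and 2.15 ± 0.26 in control libraries, a difference of 0.64 (SE 0.20, limma adjusted p = 0.00247). Called higher were 3 of 3, against 90.8% of all regions (16047 of 17679), whose median difference was 0.78, above the Dlx5/6 and Dlx3/4 values. After median centring 0 of 3 were called and the differences were 0.09 at Dlx1/2 and, with the sign turned, -0.09 at Dlx5/6 and -0.14 at Dlx3/4. After quantile normalization they were 0.07, -0.05 and 0.12 in the same order, with 0 of 3 called.

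VPA TAK-418 libraries had less H3K9Ac than VPA vehicle libraries at the Dlx pairs, short of the threshold as deposited. Dlx1/2 averaged 5.59 ± 0.81 in VPA TAK-418 libraries, a difference of -0.70 from VPA vehicle (SE 0.25, limma adjusted p = 0.0529), Dlx5/6 averaged 4.44 ± 0.81, a difference of -0.56 (SE 0.25, limma adjusted p = 0.0984), and Dlx3/4 averaged 2.82 ± 0.37, a difference of -0.36 (SE 0.20, limma adjusted p = 0.153). Called were 0 of 3, with 2 of 3 at an unadjusted p under 0.05, against 9.58% of all regions (1693 of 17679, of which 3 were higher and 1690 lower) and a median of -0.41. After median centring Dlx1/2 was called at -0.30 (SE 0.08, limma adjusted p = 0.0143), where 17.8% of all regions (3142 of 17679) were called lower, while Dlx5/6 had -0.16 (limma adjusted p = 0.0835) and Dlx3/4 0.04 (limma adjusted p = 0.728). After quantile normalization Dlx1/2 had -0.31 and missed the threshold (limma adjusted p = 0.0551). Without VPA vehicle replicate 3, 3 of 3 were called lower. With the replicate number as a block, 2 of 3 were called (Dlx1/2 and Dlx5/6), although the labels do not say that the numbers pair libraries.

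Between VPA TAK-418 and control libraries, H3K9Ac differed by 0.16 at Dlx1/2, 0.13 at Dlx5/6 and 0.28 at Dlx3/4 (limma adjusted p = 0.56, 0.641 and 0.276). Called were 0 of 3 Dlx regions, with 0 of 3 at an unadjusted p under 0.05, and 0% of all regions, of which 3387 had an unadjusted p under 0.05; the median was 0.37. After median centring all 3 signs turned, to -0.22, -0.25 and -0.10 (limma adjusted p = 0.239, 0.188 and 0.489), and after quantile normalization to -0.24, -0.30 and -0.04 (limma adjusted p = 0.189, 0.12 and 0.76). Without VPA vehicle replicate 3, or with only the 6 libraries compared, 1 of 3 was called. A p that misses the threshold does not show that TAK-418 and control libraries were alike.

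**Figure D4:**
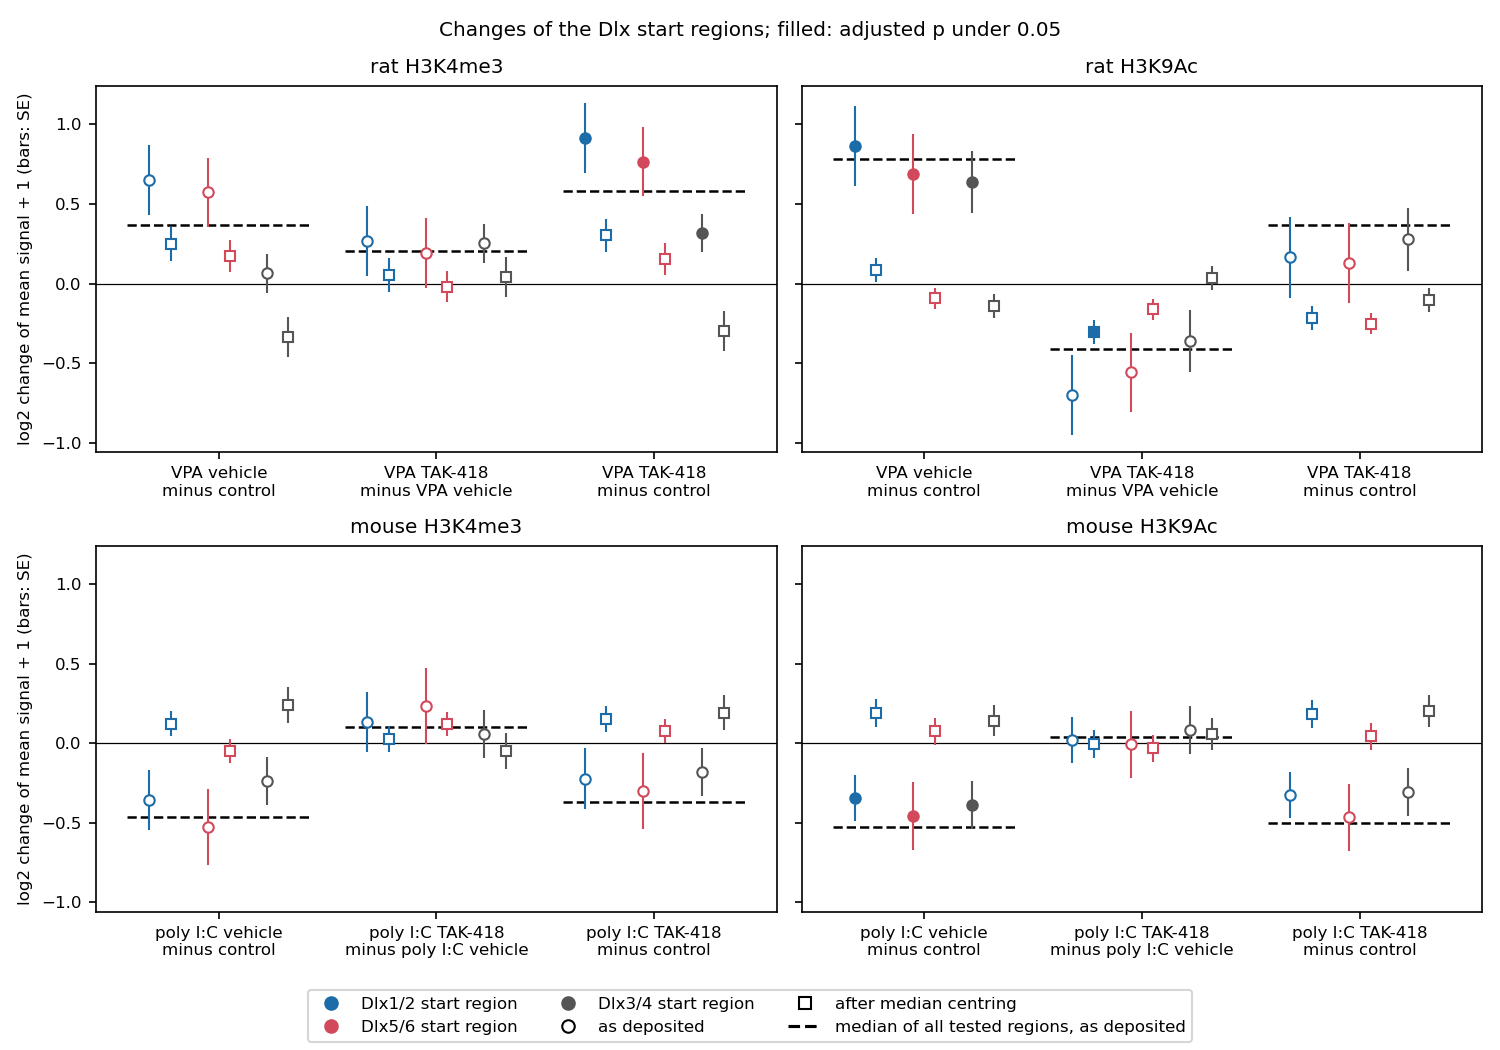
Log2 change of mean signal + 1 (y axis, bars are SE) of the 3 Dlx start regions for the 3 group comparisons (x axis), in H3K4me3 and H3K9Ac, rat above and mouse below. Circles are values as deposited, squares values after median centring, filled where the adjusted p was under 0.05, and dashed lines the median of all tested regions. Rat Dlx3/4 H3K4me3 in VPA TAK-418 against control was 0.32 as deposited and -0.30 after centring. The mouse H3K9Ac changes in poly I:C vehicle against control turned from below to above 0 with centring. After quantile normalization, not drawn, the Dlx3/4 values of these 2 comparisons were 0.03 and -0.04.

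In mouse H3K9Ac, the 3 start regions were lower in poly I:C vehicle than in control libraries as deposited, and above them after median centring. After quantile normalization Dlx3/4 stayed below them. The differences were -0.39 at Dlx3/4 (SE 0.15, limma adjusted p = 0.0322), -0.34 at Dlx1/2 (SE 0.14, limma adjusted p = 0.0371) and -0.46 at Dlx5/6 (SE 0.21, limma adjusted p = 0.0483). Called lower were 3 of 3, against 64.0% of all regions (8159 of 12747), whose median was -0.53, beyond all 3 Dlx values. After median centring 0 of 3 were called and the sign turned, with 0.14, 0.19 and 0.08 at Dlx3/4, Dlx1/2 and Dlx5/6, and 0 of 3 were called after quantile normalization, without the filter on intervals or with the highest signal. After quantile normalization the differences were -0.04, 0.03 and 0.04 in this order. All 3 calls were lost without control replicate 1 or 2, poly I:C vehicle replicate 2 or 3, or poly I:C TAK-418 replicate 2, and 1 call was left without poly I:C TAK-418 replicate 1. Poly I:C TAK-418 minus poly I:C vehicle was 0.08, 0.02 and -0.01 in the same order, with 0 of 3 called, 0 of 3 at an unadjusted p under 0.05, and 0% of all regions called, 5 of them at an unadjusted p under 0.05. Poly I:C TAK-418 minus control was -0.31, -0.32 and -0.46 (limma adjusted p = 0.0612, 0.0559 and 0.056), with 0 of 3 called, 3 of 3 at an unadjusted p under 0.05, and 0% of all regions called, although 9487 of 12747 had an unadjusted p under 0.05. After median centring these differences turned to 0.20, 0.18 and 0.04, and after quantile normalization they were 0.02, 0.02 and -0.01. Here 3 of 3 were called without control replicate 3 and with the replicate block, and 2 of 3 without poly I:C vehicle replicate 2.

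In mouse H3K4me3, poly I:C vehicle minus control was -0.53 at Dlx5/6 (SE 0.24, limma adjusted p = 0.127), -0.36 at Dlx1/2 (SE 0.19, limma adjusted p = 0.13) and -0.24 at Dlx3/4 (SE 0.15, limma adjusted p = 0.161). The median of all regions was -0.46. After median centring the differences were -0.05 at Dlx5/6 and, with the sign turned, 0.12 at Dlx1/2 and 0.24 at Dlx3/4. After quantile normalization they were -0.09, -0.01 and 0.02 in this order. Called were 0 of 3, with 1 of 3 at an unadjusted p under 0.05, and 0% of all regions, 4874 of them at an unadjusted p under 0.05. Without control replicate 3, 2 of 3 were called. Poly I:C TAK-418 minus poly I:C vehicle was 0.23, 0.14 and 0.06 in the same order, with 0 of 3 called, 0 of 3 at an unadjusted p under 0.05, and 0% of all regions called, 94 at an unadjusted p under 0.05. Poly I:C TAK-418 minus control was -0.30, -0.22 and -0.18 (limma adjusted p = 0.303, 0.315 and 0.31), with 0 of 3 called, 0 of 3 at an unadjusted p under 0.05, and 0.00804% of all regions called (1 of 12439). After median centring poly I:C TAK-418 minus control turned to 0.08, 0.15 and 0.19, and after quantile normalization it was 0.03, -0.01 and -0.02.

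H3K27me3 at the Dlx regions gave no call in any group comparison. In rat the differences at the 5 regions were at most 0.33 in size over the 3 comparisons, with SEs of 0.35 to 0.52; called were 0 of 5 in each, with 0 of 5 at an unadjusted p under 0.05, and 0% of all 15480 regions, of which 4, 2 and 11 had an unadjusted p under 0.05 for VPA vehicle minus control, VPA TAK-418 minus VPA vehicle and VPA TAK-418 minus control. At the 3 start regions the SEs were 0.49 to 0.52. The other 3 rat marks had narrower SEs of 0.12 to 0.25 at the start regions where they were tested. In mouse, poly I:C vehicle and control differed by 0.01 to 0.03 at the 3 regions. Poly I:C TAK-418 minus poly I:C vehicle ranged over them from -0.60 to -0.57 (SE 0.52 to 0.55, limma adjusted p = 0.321), and poly I:C TAK-418 minus control from -0.58 to -0.55 (limma adjusted p = 0.401). Called were 0 of 3 in each, with 0 of 3 at an unadjusted p under 0.05, and 0% of all 9238 regions, with 0, 26 and 8 at an unadjusted p under 0.05 in this order. The medians of all regions were 0.05, -0.46 and -0.40. After median centring poly I:C TAK-418 minus poly I:C vehicle ranged from -0.15 to -0.11 at the 3 regions, with 0 of 3 called.

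Mouse H3K27me3 depended on 1 library. Without poly I:C vehicle replicate 3, poly I:C TAK-418 minus poly I:C vehicle was -1.14 at Dlx3/4, -1.09 at Dlx1/2 and -1.15 at Dlx5/6 (limma adjusted p = 0.000399, 0.00041 and 0.000399), and 3 of 3 were called lower. In that fit 9235 of 9238 regions were called lower and the median of all regions was -0.82, so the Dlx regions moved with the whole mark.

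In H3K9me3, 2 Dlx start regions per species had enough intervals to be tested, Dlx1/2 and Dlx3/4. In rat, VPA vehicle minus control was 0.30 at Dlx3/4 (SE 0.15, limma adjusted p = 0.0714) and 0.22 at Dlx1/2 (SE 0.20, limma adjusted p = 0.272), with 0 of 2 called, 0 of 2 at an unadjusted p under 0.05, against 56.2% of all regions (14664 of 26084) and a median of 0.50. After median centring the signs turned, to -0.20 at Dlx3/4 and -0.28 at Dlx1/2 (limma adjusted p = 0.411 and 0.407). With only the 6 libraries compared, and without VPA TAK-418 replicate 1, 1 of 2 was called. VPA TAK-418 minus VPA vehicle gave 0 of 2 called, 0 of 2 at an unadjusted p under 0.05, and 0% of all regions called, 128 at an unadjusted p under 0.05. VPA TAK-418 minus control was 0.22 at Dlx3/4 and 0.03 at Dlx1/2 (limma adjusted p = 0.177 and 0.878), with 0 of 2 called, 0 of 2 at an unadjusted p under 0.05, against 39.5% of all regions (10309 of 26084) and a median of 0.48. After median centring these turned as well, to -0.25 and -0.44 (limma adjusted p = 0.459 and 0.445). In mouse the differences as deposited ranged from -0.16 to 0.01 over the 3 comparisons, with 0 of 2 called and 0 of 2 at an unadjusted p under 0.05 in each. Of all 17543 regions 0% were called, with 26, 2 and 0 at an unadjusted p under 0.05 for poly I:C vehicle minus control, poly I:C TAK-418 minus poly I:C vehicle and poly I:C TAK-418 minus control. After median centring the Dlx differences ranged from -0.25 to 0.36, with 0 of 2 called in each. Among them, Dlx1/2 in poly I:C vehicle minus control was 0.35 (limma unadjusted p = 0.0102, adjusted p = 0.767).

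Other genes of the same programmes are given from lists of start regions. GABAergic interneuron specification held 20 genes, among them Sp8 and Sp9, zinc finger factors of the ganglionic eminences, and Lhx6, a regulator of interneurons from the medial eminence. In rat H3K4me3, 16 of 16 tested regions of this list were higher in VPA TAK-418 than in control libraries (list median 0.72), against 72.8% of all regions called higher (median 0.58), among them Sp9 at 0.81 and Sp8 at 0.79 (limma adjusted p = 0.000987 and 0.00169). Of mature interneuron genes 10 of 12 were higher (median 0.64), with Gad2, a GABA-synthesising enzyme, at 0.84, Tac1, a neuropeptide precursor, at 0.71, and Elfn1, a synaptic adhesion protein, at 0.68. Of excitatory cortical neuron genes 14 of 15 were higher (median 0.67), with Tbr1 at 0.78 and Fezf2 at 0.76, both factors of deep-layer neurons, and Emx2, a factor of cortical patterning, at 0.76. Of the regulators of ectoderm, bone and placenta, the tissues known for Dlx3 and Dlx4, 12 of 14 were higher (median 0.58), with Twist1 at 0.87 and Prrx1 at 0.95, both mesenchymal factors. After median centring 0 regions of any of the 4 lists were called and the list medians were 0.11, 0.02, 0.06 and, with the sign turned, -0.03 in this order.

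In rat H3K9Ac, VPA vehicle exceeded control as deposited in 15 of 15 interneuron specification, 12 of 12 mature interneuron, 14 of 14 excitatory and 13 of 13 ectoderm, bone and placenta regions, against 90.8% of all regions, with list medians of 0.71, 0.72, 0.86 and 0.67 against 0.78 for all regions. After median centring the medians were -0.07, -0.06, 0.08 and -0.11, with 0, 1, 2 and 1 regions called higher and 3, 1, 0 and 2 called lower. Examples as deposited were Meis2, a homeodomain factor of the developing striatum, at 1.00, Cck, a neuropeptide precursor of an interneuron class, at 1.00, Neurod2, a factor of excitatory neurons, at 1.10, and Sp7, the osteoblast regulator, at 1.03. In VPA TAK-418 against VPA vehicle libraries, 1 of 15 interneuron specification regions was called lower, Meis2 at -0.73 (limma adjusted p = 0.0455), and 0 of the other lists, against 9.58% of all regions called. The list medians were -0.51, -0.43, -0.53 and -0.44, against -0.41 for all regions. After median centring 1, 0, 5 and 0 regions were called lower, and after quantile normalization the interneuron specification list had 0 lower and 1 higher. In mouse H3K9Ac, poly I:C vehicle was below control in 11 of 14, 10 of 14, 11 of 15 and 5 of 6 regions of the 4 lists, against 64.0% of all regions (medians -0.42, -0.47, -0.53 and -0.53, all regions -0.53), with Lhx6 at -0.42, Erbb4, a neuregulin receptor of interneurons, at -0.72, and Bcl11b, a factor of subcerebral projection neurons, at -0.66. After median centring 0 were called and the list medians were 0.12, 0.06, -0.0007 and 0.0030. The lists were described by counts and medians only, and no difference between lists was tested.

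Levels of H3K27me3 in control libraries were high across these lists too. The median percentile was 99.3 for interneuron specification genes, 96.5 for mature interneuron, 98.3 for excitatory and 99.1 for ectoderm, bone and placenta genes in rat, and 99.5, 97.1, 99.3 and 99.6 in mouse. The inhibitory markers Gad1, Gad2, Slc32a1 and Lhx6 had a median of 99.6 in both species. In rat, markers of astrocytes, oligodendrocytes and microglia had lower medians of 94.4, 88.0 and 83.7.

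The regions of other genes whose 4 marks were most like a Dlx start region were found by the root mean square difference of log2(mean signal + 1) over the 36 libraries of a species. Candidates were the 4226 rat and 4074 mouse regions with a gene start within 1000 bp of the region centre. No Dlx gene start lay that near the centre of its own region, so regions built like these were left out. For rat Dlx1/2 they were Susd3 (0.196), Lrrc38 (0.433) and Aim1 (0.490), and for rat Dlx5/6 Lrp2 (0.298), Prob1 (0.306) and Aim1 (0.307). For rat Dlx3/4 they were Mir375 (0.124), Cldn7 (0.174) and Prrxl1 (0.279). For mouse Dlx1/2 they were Sall3 (0.127), 4933436C20Rik (0.135) and Sox21 (0.159), for mouse Dlx5/6 Ccno (0.163), Pax6 (0.168) and the region of Dok1 and Loxl3 (0.173), and for mouse Dlx3/4 Smagp (0.204), Prss36 (0.208) and Fgfr4 (0.208). Among these candidates, the closest match in rat was nearer for Dlx3/4 than for either interneuron pair, and in mouse Dlx1/2 had the closest match of the 3 pairs.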

How the data were processed

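Frozen cortex was fixed with formaldehyde and chromatin was immunoprecipitated and sequenced on an Illumina NextSeq, per the labels' protocols. Reads were aligned with BWA 0.7.12, and the builds named are mm10 and rn5, per the submitters' processing notes. Neither peak caller nor bin width is given in the sources used here, and how libraries were scaled is not stated there. Library names carry the tag dm beside that of the species, with no use of it stated, so a shift common to all regions of a mark cannot be told apart from scaling. The authors deposited 1 table per species of merged regions with the mean signal and the highest signal of each library and whether an interval was called, per the file headers; read depth is unknown. All library columns were matched to samples by name (0 unmatched).

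Values were tested as log2(mean signal + 1) with limma 3.58.1 (R 4.3.3, mean-dependent prior, robust, group only) on the 9 libraries of a mark and species, over regions with an interval in at least 3, with Benjamini-Hochberg adjustment over all of them and a threshold of 0.05. Pairs were compared by exact two-sided sign-flip tests (Python 3.11.15, numpy 2.4.6, pandas 2.3.3). Where 2 genes shared a region, it was used once. The limma fit was tested on simulated data.

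Alternatives were median centring, quantile normalization, a pseudocount of 0.5, no filter, the highest signal, only the 6 libraries compared, a replicate block and leaving out each library. Deviations of libraries with the same replicate number were correlated between groups. The correlation was positive at all 3 numbers only for mouse H3K27me3 poly I:C TAK-418 and control (r = 0.33, 0.11 and 0.16) and mouse H3K4me3 poly I:C vehicle and control (r = 0.29, 0.0975 and 0.024). Libraries with unlike numbers were not compared, so this does not settle whether the numbers pair libraries, and the labels do not say so.

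All regions listing Dlx1 to Dlx6 are reported. Of each list, the named genes are among the 3 with the smallest p in a comparison; some are not reported here. The members and lists were chosen with earlier results of these data known.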

Additional observations from a re-analysis of the deposited data

How the results depend on the processing

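As deposited, 3 Dlx regions each were called in rat H3K4me3 (VPA TAK-418 against control), rat H3K9Ac (VPA vehicle against control) and mouse H3K9Ac (poly I:C vehicle against control), and 0 elsewhere. Median centring and quantile normalization each gave 0 in all 3, which by construction removes a shift common to the mark; median centring also gave 1 in rat H3K9Ac VPA TAK-418 against VPA vehicle. Over all 72 differences of Dlx regions between groups, 39 changed sign under median centring and 31 under quantile normalization; of the called ones, signs turned under centring at rat H3K4me3 Dlx3/4 (-0.30), rat H3K9Ac Dlx3/4 (-0.14) and Dlx5/6 (-0.0925) and mouse H3K9Ac Dlx3/4 (0.14), Dlx1/2 (0.19) and Dlx5/6 (0.0752), and under quantile normalization at rat H3K9Ac Dlx5/6 (-0.0464) and mouse H3K9Ac Dlx1/2 (0.0283) and Dlx5/6 (0.0431). Without the filter on intervals, which adds regions to the adjustment, 0 were called in rat H3K4me3 VPA TAK-418 against control and in mouse H3K9Ac poly I:C vehicle against control. With the highest signal, 0 were called in this mouse comparison and 2 in rat H3K9Ac VPA TAK-418 against VPA vehicle. With only the 6 libraries compared, 1 was called in rat H3K9Ac VPA TAK-418 against control, 1 in rat H3K9me3 VPA vehicle against control and 1 in mouse H3K9Ac poly I:C vehicle against control; the cause was not tested. A pseudocount of 0.5 kept every count.

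Leaving out 1 library in turn gave 0 to 2 calls in rat H3K4me3 VPA vehicle against control, 2 to 3 in VPA TAK-418 against control, 0 to 3 in rat H3K9Ac VPA TAK-418 against VPA vehicle, 0 to 1 in VPA TAK-418 against control, 0 to 1 in rat H3K9me3 VPA vehicle against control, 0 to 2 in mouse H3K4me3 poly I:C vehicle against control, 0 to 3 in mouse H3K9Ac poly I:C vehicle against control and in poly I:C TAK-418 against control, and 0 to 3 in mouse H3K27me3 poly I:C TAK-418 against poly I:C vehicle. The replicate block gave 2 calls in rat H3K9Ac VPA TAK-418 against VPA vehicle and 3 in mouse H3K9Ac poly I:C TAK-418 against control. Whether the numbers pair libraries there is not known. The block changed no other call count, with 0 calls in mouse H3K27me3 poly I:C TAK-418 against control.

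With the highest signal, Dlx5/6 minus Dlx3/4 was -0.0121 in rat H3K9Ac, 0.0017 in rat H3K27me3, 0.0236 in mouse H3K4me3, -0.0151 in mouse H3K9Ac, -0.19 in mouse H3K27me3 and -0.0594 in mouse H3K9me3 (exact permutation test, adjusted p = 0.0187 in mouse H3K27me3, against the direction of the mean signal, and over the threshold in the others); Dlx1/2 minus Dlx3/4 was -0.0085 in rat H3K9me3 and -0.22 in mouse H3K4me3; and Dlx1/2 minus Dlx5/6 was 0.22 in rat H3K9me3, -0.25 in mouse H3K4me3, -0.13 in mouse H3K9Ac and 0.49 in mouse H3K27me3 (exact permutation test, adjusted p = 0.0117 for the last, also against the direction of the mean signal). As said above, a longer region offers more positions for a high value. All 24 pair differences kept direction and call with a pseudocount of 0.5 and in each of the 216 fits without 1 library. Taking the region of highest mean signal of each pair picked the start regions again in every mark, so it was no separate check.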

Other observations

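Regions near the Dlx loci that list none of the 6 genes carried other mixtures of marks, given as means over 9 libraries. In rat, a 2.6 kb region with 1 CpG island and no listed gene at chr3:64692200-64694799, 18.2 kb from the Dlx1/2 start region, had H3K4me3 of 7.96 (range 5.83 to 14.4, an interval in 9 of 9 libraries) with H3K27me3 of 2.46 (0 of 9). A second rat region with no listed gene at chr3:64735000-64745199 (10.2 kb) had H3K4me3 of 8.29 and H3K9Ac of 7.33, each with an interval in 9 of 9 libraries. In mouse, chr2:71620800-71636599 (15.8 kb, no listed gene), 4.4 kb from the Dlx1/2 start region, had H3K4me3 of 3.87 and H3K9Ac of 3.42, both in 9 of 9, and H3K27me3 of 4.01 (5 of 9). The rat region beside Dlx3/4 that listed Tac4 and Kat7, at chr10:82807200-82911399, had H3K27me3 of 11.8 (9 of 9) and H3K4me3 of 3.17 (9 of 9). In mouse, 3 regions listing Dlx6as1 alone, at chr6:6812600-6820799, chr6:6825200-6831399 and chr6:6833000-6838399, had H3K27me3 of 3.70, 3.30 and 2.95, with intervals in 3, 1 and 3 of 9 libraries.

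The difference between pairs was also set out by group. In rat H3K4me3, Dlx1/2 minus Dlx3/4 was 2.19 ± 0.15 in VPA TAK-418, 2.18 ± 0.12 in VPA vehicle and 1.59 ± 0.37 in control libraries, and Dlx5/6 minus Dlx3/4 was 1.83 ± 0.02, 1.89 ± 0.13 and 1.38 ± 0.24 in the same order (log2, SD, n = 3 each). In rat H3K9Ac, Dlx1/2 minus Dlx3/4 was 0.78 ± 0.06 in VPA TAK-418, 1.12 ± 0.15 in VPA vehicle and 0.90 ± 0.08 in control libraries. With 3 libraries against 3 an exact two-sided permutation test cannot go below 0.1, and after adjustment over 72 such tests, chosen after seeing the data, no p was below 0.655.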
